A study of Mus musculus with 66 samples.

Results

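The change of the effect of oxygen on blood expression between postnatal day 12 (P12) and day 17 (P17) was examined in mouse pups of the oxygen-induced retinopathy model. The value of interest was a difference of differences, in which hyperoxia minus normoxia at P12 was subtracted from hyperoxia minus normoxia at P17. It was taken over 45 of the 66 arrays of the series and over 28829 of the 56605 probes on the array, those that stood well above background in the blood channel on a share of 0.5 or more of the arrays of 1 of the 4 groups. A value above 0 is called higher at P17, since the effect of hyperoxia was then more positive at P17 than at P12, and a value below 0 is called lower at P17.

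All pups were C57BL/6 mice without a named genetic change. Each litter entered a chamber with its nursing mother on day 7 and breathed 75% oxygen (hyperoxia) or 21% oxygen (normoxia) until day 12, when all cages returned to room air. P12 pups were therefore sampled at the end of the exposure and P17 pups after 5 days of room air. The 10 P12 hyperoxia, 11 P12 normoxia, 12 P17 hyperoxia and 12 P17 normoxia arrays each held RNA of the mononuclear cell layer of 1 pup's blood against a universal mouse reference RNA, and 21 arrays of P28 served only to estimate the spread and as a later time point. Whole litters shared an oxygen level, and each group drew on several litters. The labels do not give the litter of an array, so litter was not modelled, and p-values measure the spread between arrays. The number of arrays limits the precision.

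In this model high oxygen stops the growth of retinal vessels, and the return to room air leaves the poorly supplied retina hypoxic, so that vessels then grow in excess at about P17. Blood cells meet the same switch. High oxygen lowers erythropoietin and with it the release of young red cells, and reactive oxygen activates the p53 and oxidative stress pathways. Proteins of the hnRNP family and translation factors set which messages blood cells splice and translate.

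Every ratio below is log2(Cy3/Cy5), read as blood over reference. The labels name Cy5 as the blood channel, but the intensities go against them. On every array Hba-a1, which encodes an alpha globin, had a log2 intensity of at least 17.65 in Cy3 and at most 12.23 in Cy5, and log2 intensities of Cy3 varied more between arrays (median r 0.947) than those of Cy5 (median r 0.992). If the labels were right, every sign given here would turn round, while an opposite sign at P12 and P17 would stay opposite. Markers of T cells (18 of 18), B cells (15 of 15) and monocytes (15 of 16 or more) were detected on a share of 0.5 or more of the arrays of every group, as were 14 of 14 reticulocyte, 15 of 15 platelet and 17 or more of 19 neutrophil markers, so the mononuclear layer also held RNA typical of red cells, platelets and granulocytes. The Y-linked gene Eif2s3y fell into 2 ranges, above 0.80 or below -0.11 (log2 ratio), and was in the upper one on 5 of 10 and 6 of 11 arrays at P12 and on 8 of 12 arrays of both P17 groups.

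Of the 28829 probes, 75 passed an adjusted p of 0.05 (limma, Benjamini-Hochberg), which is 0.26% of those tested, and 5433 had an unadjusted p under 0.05. The oxygen effect was higher at P17 for 35 probes (0.121%) and lower for 40 probes (0.139%). With Cy3 intensities alone in place of ratios, 58 were higher and 248 lower. Among the 75, 60 probes carried a symbol, for 59 genes (25 higher and 34 lower), and 15 probes carried none (9 higher and 6 lower). Fits that left out 1 array called between 28 probes (without P12 hyperoxia replicate 1) and 646 (without P17 hyperoxia replicate 3), and 24 of the 75 passed in all 45 such fits. Genes higher at P17 included the DNA damage regulator Trp53, the translation factors Eif5a and Eif4g2 and the RNA-binding proteins Raly and Hnrnpl. Genes lower at P17 included the paralogous repressors Tgif1 and Tgif2, the RNA-binding proteins Hnrnpa1 and Hnrnpdl, the ubiquitin ligase subunits Cul4b and Fbxw7 and the signalling regulators Dusp10, Tsc1 and Fnip1.

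The oxygen effect of these probes turned round between the ages. For 75 of 75 the sign of the oxygen effect was opposite at the 2 ages, against 48.4% of all tested probes. For 63 of the 75 the effect had an unadjusted p under 0.05 at both ages with opposite signs, against 1.1% of all tested probes. The test itself favours such probes, so these shares describe the members and support nothing further. The 35 probes higher at P17 had a median oxygen effect of -0.27 at P12 and 0.28 at P17 (log2), and the 40 lower at P17 had 0.29 and -0.24. Taken at 1 age the effects were small. Adjusted over all probes, 0 of the 75 passed at P12 and 3 at P17, against 0 and 4 of all tested probes. An unadjusted p under 0.05 was seen for 7563 of all tested probes at P12 and for 3384 at P17. The plot of both effects places the members in the upper left and lower right quadrants.

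**Figure D1:**
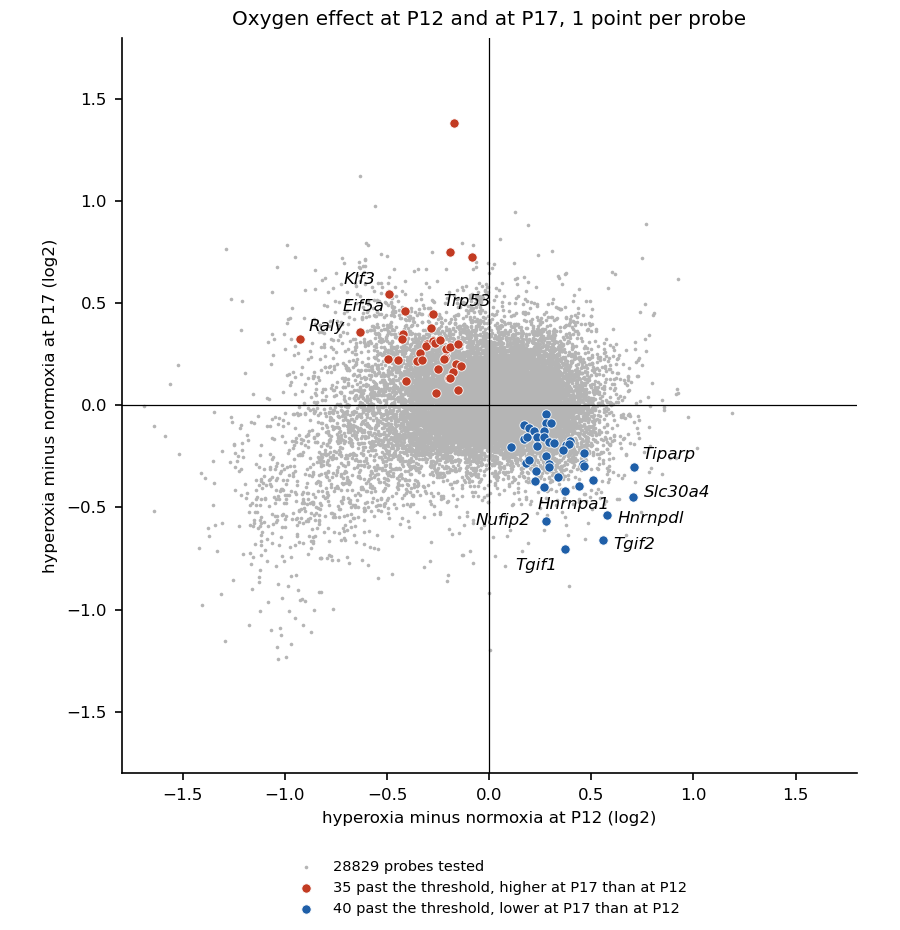
Oxygen effect (hyperoxia minus normoxia, log2) at P12 on the horizontal axis and at P17 on the vertical axis, 1 point per tested probe (28829, grey). The 35 red points (higher at P17) all lie above 0 at P17 and below 0 at P12, and the 40 blue points (lower at P17) all lie on the opposite side of both lines.

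From P12 to P17 the means of the hyperoxia and of the normoxia arrays differed in opposite directions for 71 of the 75 probes, against 41.6% of all tested probes. The value of interest equals the difference in hyperoxia minus that in normoxia, so the choice of members favours opposite directions, and these counts are a description only. Adjusted over all probes, 58 of the 75 passed from P12 to P17 in hyperoxia and 23 in normoxia. Of all 28829 tested probes 4795 and 731 did so. Of the probes higher at P17, 33 of 35 were higher at P17 than at P12 in hyperoxia, and 0 of 35 in normoxia. Of those lower at P17, 0 of 40 were higher at P17 than at P12 in hyperoxia, and 38 of 40 in normoxia. The change in hyperoxia was the greater of both in 34 of the 40 probes lower at P17 and in 17 of the 35 higher at P17. It was the greater in 17621 of all 28829 tested probes. Ranges of hyperoxia and normoxia overlapped at P12 and at P17 for each of 31 probes past the threshold taken by the naming rule, so the differences lay in the centre of the groups and not in separate groups of arrays.

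P28 arrays took no part in the value of interest, but they entered the estimate of the spread, and without them 28 of the 75 passed. At P28 the oxygen effect of 37 of the 40 probes lower at P17 was above 0, the sign they had at P12, and its median was 0.12 (log2). Of the 35 probes higher at P17, 20 had the sign of P12 at P28, with a median of -0.029. The sign at P28 was that of P12 in 77.2% of all tested probes. Adjusted over all probes 0 of the 75 passed at P28, and 13 had an unadjusted p under 0.05, of which 12 had the sign of P12. Among all 28829 tested probes 0 passed at P28, and 3145 had an unadjusted p under 0.05, of which 2860 had the sign of P12.

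**Figure D2:**
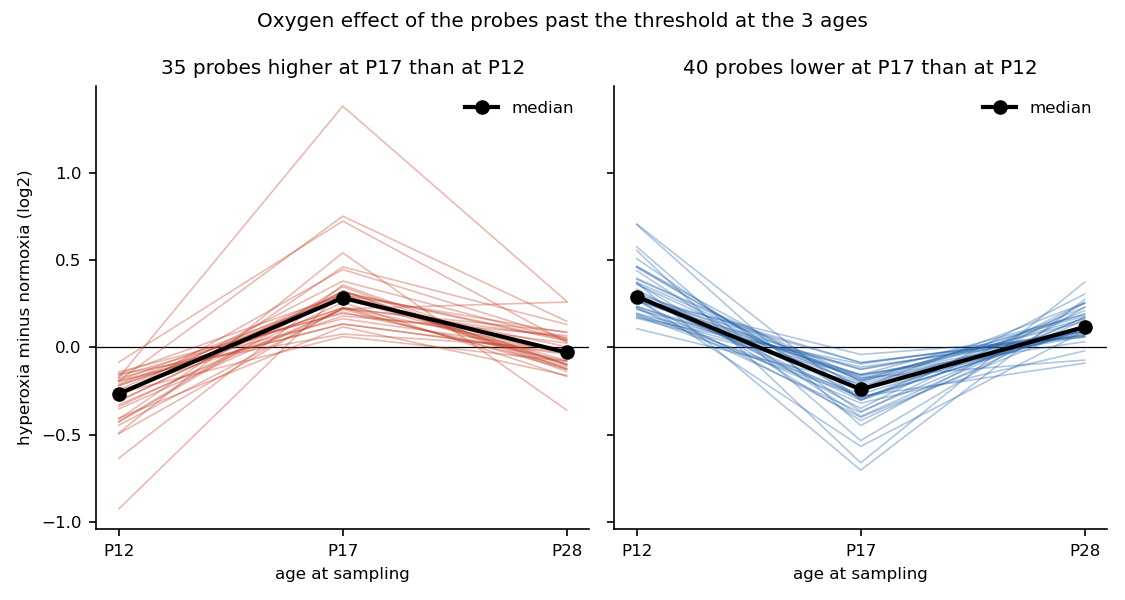
Oxygen effect (hyperoxia minus normoxia, log2) at P12, P17 and P28, 1 line per probe past the threshold, with the median in black. The median of the 35 probes higher at P17 ran from -0.27 over 0.28 to -0.029, and that of the 40 lower at P17 from 0.29 over -0.24 to 0.12.

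Slides and scan days were not evenly spread. Scan day 2 held 8 of the 12 arrays of P17 normoxia but 1 of each of the other 3 groups, and 4 of the 9 slides held 0 arrays of P17 normoxia. With scan day as a block 9 probes passed, those of Trp53, Nrd1, Eif4g2, Hnrnpl, Cul4b, Hnrnpa1 and 3 transcripts without a symbol. With slide as a block 5 passed, those of Trp53, Eif4g2, Gps2, Hnrnpa1 and the transcript ENSMUST00000082396. Within scan day 1 alone (34 of the 45 arrays) 0 probes passed, while the unadjusted p was under 0.05 for 2793. In each of these fits 75 of 75 probes kept their direction with an unadjusted p under 0.05, and the median size relative to the value reported was 0.945 with scan day, 0.89 with slide and 1.01 within scan day 1. The other members thus lost the call with both blocks.

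Trp53, the tumour suppressor that halts the cell cycle after DNA damage, held its call under both blocks. Its log2 ratio ran from -1.32 to -0.88 (median -1.09) in P12 hyperoxia and from -1.07 to -0.32 (median -0.86) in P12 normoxia. At P17 it ran from -1.28 to -0.47 (median -0.69) in hyperoxia and from -1.68 to -0.90 (median -1.24) in normoxia. 0 of 10 hyperoxia arrays lay above the normoxia median at P12 and 11 of 12 at P17. The oxygen effect on Trp53 came to -0.28 ± 0.093 at P12 and 0.45 ± 0.087 at P17, with 0.051 ± 0.093 at P28 (log2, SE), and its change from P12 to P17 was 0.72 ± 0.13 (log2, SE; adjusted p 0.0058). With slide as a block the change was 0.73, with scan day as a block 0.68, so the value moved by less than its SE.

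Trp53 was the only member of the list of p53 and DNA damage genes past the threshold, 1 of 33 tested. The list's median change was 0.0056, beside 0.0033 over all 13922 genes tested (log2, the brightest probe of a gene). Over all probes of the list it was -0.041, beside 0.013 over all probes tested. In the list the unadjusted p was under 0.05 for 3 genes higher and 4 lower at P17. Over all genes tested, the background for this and every list below, 0.18% had a probe past the threshold in the higher and 0.244% in the lower direction. At an unadjusted p under 0.05 9.29% were higher and 9.24% lower. The lists were chosen with earlier results of these data known, so counts set beside this background describe the lists and support nothing further. The list's median oxygen effect was 0.046 at P12 and 0.016 at P17, so the list's median was above 0 at both ages.

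The largest change of all 75 was that of a transcript that the gene table does not pair with a symbol, ENSMUST00000082396. The ratio of this transcript ran from -2.17 to -0.37 (median -0.81) in P17 hyperoxia and from -3.42 to -1.34 (median -2.20) in P17 normoxia, and 12 of 12 hyperoxia arrays lay above the normoxia median. At P12 the ranges were -1.18 to -0.26 (median -0.76) in hyperoxia and -1.35 to 0.18 (median -0.61) in normoxia. Unlike most members its effect lay almost wholly at P17, with -0.17 ± 0.18 at P12 and 1.38 ± 0.17 at P17, a change of 1.56 ± 0.25 (log2, SE; adjusted p 0.000986). The P17 normoxia arrays were the low ones, below the level of both P12 groups in their median.

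The hnRNPs coat nascent transcripts and, with the SR proteins, decide which exons are kept. Of 50 hnRNP and splicing genes tested, 4 had a probe past the threshold. Raly and Hnrnpl were higher at P17, and Hnrnpa1 and Hnrnpdl were lower. By the brightest probe of a gene the count was 1 higher and 1 lower, and 15 of 50 genes were lower and 3 higher at an unadjusted p under 0.05, against 9.24% and 9.29% of all genes. By the brightest probe the median change of the list was -0.29 (log2), with 8 of 50 above 0, and over all its probes it was -0.12. Its median oxygen effect was 0.34 at P12 and 0.035 at P17, and that of Hnrnpa1 and Hnrnpdl was below 0 at P17.

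Raly, an hnRNP of the C family, had the greatest change among genes with a symbol that passed the threshold. In P12 hyperoxia its log2 ratio was -0.18 to 1.21 (median 0.31), against 0.45 to 2.28 (median 1.21) in P12 normoxia. In P17 hyperoxia it was 0.20 to 2.78 (median 1.07), against 0.22 to 1.54 (median 1.02) in P17 normoxia. The P12 hyperoxia arrays were the low group, with 0 of 10 above the P12 normoxia median, and 8 of 12 P17 hyperoxia arrays were above that of P17 normoxia. The effect was -0.93 ± 0.21 at P12 and 0.32 ± 0.19 at P17, a change of 1.25 ± 0.28 (log2, SE; adjusted p 0.0305). Hnrnpl, which regulates alternative exons in lymphocytes, was at -0.26 to 0.068 (median -0.044) in P12 hyperoxia and -0.14 to 0.38 (median 0.19) in P12 normoxia, then at -0.27 to 0.49 (median 0.23) and -0.19 to 0.22 (median 0.036) at P17. Hyperoxia arrays above the normoxia median numbered 0 of 10 at P12 and 10 of 12 at P17. The gene changed by 0.43 ± 0.086 (log2, SE; adjusted p 0.0135), from -0.25 ± 0.063 at P12 to 0.18 ± 0.059 at P17. A brighter probe of Hnrnpl was at -0.11 (unadjusted p 0.467).

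Hnrnpa1, a splicing repressor, was the member lower at P17 that held its call under both blocks. Its ratio was 0.30 to 1.12 (median 0.53) in P12 hyperoxia and -0.31 to 0.58 (median 0.053) in P12 normoxia, and 10 of 10 hyperoxia arrays lay above the normoxia median. At P17 it was -0.48 to 0.91 (median 0.062) in hyperoxia and -0.057 to 0.93 (median 0.52) in normoxia, with 1 of 12 hyperoxia arrays above the normoxia median. The change was -0.84 ± 0.17 (log2, SE; adjusted p 0.0135), and -0.92 with scan day as a block. Of the other probes of Hnrnpa1 one was at -0.67 (unadjusted p 0.0174) and one at -0.0065 (unadjusted p 0.952). Hnrnpa1 has many near-identical copies in the genome, so which of them the probe reads is uncertain.

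Hnrnpdl, a relative of the AU-rich element binding protein hnRNP D, was at 0.94 to 2.10 (median 1.16) in P12 hyperoxia and -0.093 to 1.51 (median 0.64) in P12 normoxia. Its ratio was -0.31 to 1.34 (median 0.085) in P17 hyperoxia and -0.049 to 1.27 (median 0.96) in P17 normoxia. Hyperoxia was thus the higher group at P12 (10 of 10 arrays above the normoxia median) and the lower one at P17 (2 of 12). The change was -1.11 ± 0.25 (log2, SE; adjusted p 0.0305), and the effect at P28 was 0.23 ± 0.18.

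**Figure D3:**
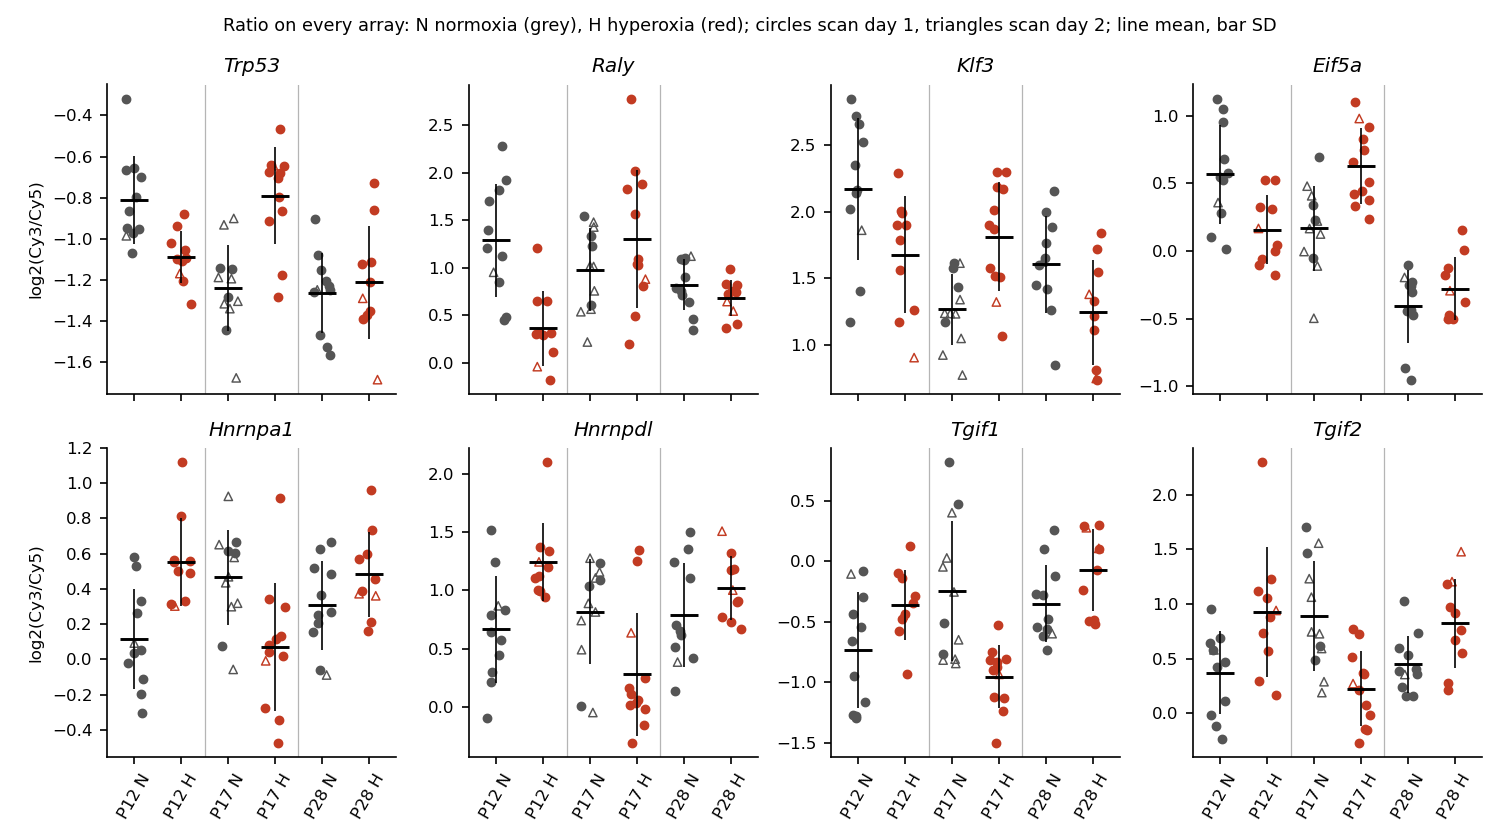
Log2(Cy3/Cy5) of 8 genes past the threshold on every array, by age and oxygen (N normoxia, H hyperoxia), with scan day 1 as filled circles and scan day 2 as open triangles. Horizontal lines are means and vertical bars SD (n = 10 to 12), and in the upper row hyperoxia lies below normoxia at P12 and above it at P17, while the lower row shows the reverse.

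Promoters are shown for 4 members, the pair Raly and Hnrnpdl as RNA-binding genes that moved apart, and Klf3 and Tgif2 as the transcription regulators with the greatest change in each direction. The windows run from 250 bases before to 50 bases after the start in RefSeq's annotation of the assembly GRCm38.p6, 5′ to 3′ on the gene's strand. Capitals mark CACCC or its reverse GGGTG, the box that Kruppel-like factors bind.
Raly (chr2:154790860-154791159, plus strand): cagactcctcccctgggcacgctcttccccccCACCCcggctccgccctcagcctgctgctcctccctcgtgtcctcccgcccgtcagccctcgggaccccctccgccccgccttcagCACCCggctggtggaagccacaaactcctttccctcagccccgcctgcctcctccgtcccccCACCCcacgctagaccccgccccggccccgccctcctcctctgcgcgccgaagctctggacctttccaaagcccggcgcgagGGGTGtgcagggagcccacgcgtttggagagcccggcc
Hnrnpdl (chr5:100039173-100039472, minus strand): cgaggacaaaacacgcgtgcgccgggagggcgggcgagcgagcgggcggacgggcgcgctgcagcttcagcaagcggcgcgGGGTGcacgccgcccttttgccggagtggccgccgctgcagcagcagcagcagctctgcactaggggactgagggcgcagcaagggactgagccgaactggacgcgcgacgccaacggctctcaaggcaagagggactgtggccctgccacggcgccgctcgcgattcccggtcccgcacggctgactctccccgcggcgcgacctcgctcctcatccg
Klf3 (chr5:64803271-64803570, plus strand): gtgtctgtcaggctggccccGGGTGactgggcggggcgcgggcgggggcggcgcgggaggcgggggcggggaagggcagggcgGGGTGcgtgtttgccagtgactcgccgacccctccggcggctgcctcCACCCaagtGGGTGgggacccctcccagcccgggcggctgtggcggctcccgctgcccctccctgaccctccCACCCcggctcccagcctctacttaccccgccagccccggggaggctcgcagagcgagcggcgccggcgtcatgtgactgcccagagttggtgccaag
Tgif2 (chr2:156839757-156840056, plus strand): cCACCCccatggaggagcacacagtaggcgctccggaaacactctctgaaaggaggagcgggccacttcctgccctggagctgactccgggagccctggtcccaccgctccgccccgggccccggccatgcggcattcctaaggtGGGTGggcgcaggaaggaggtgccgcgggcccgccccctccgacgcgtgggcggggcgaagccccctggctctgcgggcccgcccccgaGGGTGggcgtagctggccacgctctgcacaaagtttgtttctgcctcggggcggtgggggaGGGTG

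The box occurred 4 times in Raly, 1 time in Hnrnpdl, 5 times in Klf3 and 4 times in Tgif2. Windows were found for 54 of the 59 genes. The box was present in 63.9% of 36 windows of genes higher at P17 and in 59.5% of 42 windows of genes lower at P17, against 62.6% of the windows of tested genes and 57.5% of all windows. The letters TGACAG (or CTGTCA), to which TGIF proteins bind, were in 19.4% and 26.2%, against 17.5% of the windows of tested genes and 19.2% of all. The ETS core CCGGAAG (or CTTCCGG) was in 19.4% and 21.4%, against 15.6% and 8.86%. The CRE palindrome TGACGTCA was in 0 of the members' windows, against 2.77% and 1.79%. These matches are a description of letters, and windows of 1 gene overlap where it has several starts.

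Translation factors were represented by Eif5a and Eif4g2, both higher at P17, among 50 tested, of which 4 were higher and 8 lower at an unadjusted p under 0.05. Eif5a, which carries hypusine and helps ribosomes through stalling sequences, was at -0.18 to 0.53 (median 0.11) in P12 hyperoxia and 0.017 to 1.13 (median 0.55) in P12 normoxia. It was at 0.24 to 1.10 (median 0.58) in P17 hyperoxia and -0.50 to 0.69 (median 0.19) in P17 normoxia (log2 ratio). 0 of 10 hyperoxia arrays at P12 and 12 of 12 at P17 lay above the normoxia median. The change was 0.87 ± 0.17 (log2, SE; adjusted p 0.0133), while a brighter probe of Eif5a was at 0.19 (unadjusted p 0.231). Eif5a also has near-identical copies in the genome.

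Eif4g2, a scaffold for translation that does not need the cap-binding factor, was the only gene with 2 probes past the threshold. One probe changed by 0.57 ± 0.13 (log2, SE; adjusted p 0.0297) and the other by 0.56 ± 0.10 (log2, SE; adjusted p 0.0114). For the second of these the ratio was 0.086 to 0.78 (median 0.31) in P12 hyperoxia against 0.27 to 0.79 (median 0.64) in P12 normoxia, and 0.62 to 1.32 (median 0.80) in P17 hyperoxia against 0.33 to 0.84 (median 0.49) in P17 normoxia. 12 of 12 P17 hyperoxia arrays lay above the median of P17 normoxia for both probes. The remaining probe was at 0.19 (unadjusted p 0.256). Over the list of translation factors the median change was -0.0026, and 25 of 50 genes were above 0. Over all probes of the list the median was 0.0083.

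Sars, which charges serine tRNA, was higher at P17 by 0.67 ± 0.16 (log2, SE; adjusted p 0.041). It was the only one of 41 genes of amino acid starvation and the unfolded protein response past the threshold. Its ratio was -2.46 to -1.61 (median -1.95) in P12 hyperoxia and -2.19 to -0.83 (median -1.54) in P12 normoxia, then -2.03 to -1.29 (median -1.61) and -2.14 to -1.50 (median -1.80) at P17. The effect of Sars at P28 was 0.26 ± 0.11, on the side of P17. The list's median change was 0.23 (log2), with 12 genes higher and 3 lower at an unadjusted p under 0.05 (9.29% and 9.24% of all genes), and its median effect was -0.083 at P12 and 0.10 at P17. Among 70 cytosolic ribosomal proteins 0 passed, with 4 higher and 10 lower at an unadjusted p under 0.05. Rpl29 was at -0.25 (adjusted p 0.107).

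Tgif1 and Tgif2 are paralogous homeodomain proteins that repress targets of TGF-beta through SMAD proteins. Both were lower at P17, 2 of 26 tested genes of TGF-beta and SMAD signalling, against 0.244% of all genes. The list was chosen with earlier results of these data known, so this share supports nothing further. Tgif2 was at 0.17 to 2.30 (median 0.91) in P12 hyperoxia and -0.23 to 0.96 (median 0.47) in P12 normoxia (log2 ratio). At P17 it was at -0.27 to 0.77 (median 0.24) in hyperoxia and 0.19 to 1.70 (median 0.74) in normoxia, with 1 of 12 hyperoxia arrays above the normoxia median. Hyperoxia minus normoxia was 0.56 ± 0.18 at P12 and -0.66 ± 0.17 at P17, and at P28 it was again above 0 (0.37 ± 0.18). The change was -1.22 ± 0.25 (log2, SE; adjusted p 0.0154), the lowest value of the 75.

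For Tgif1 the ratio was -0.93 to 0.13 (median -0.39) in P12 hyperoxia and -1.29 to -0.080 (median -0.66) in P12 normoxia. It was -1.50 to -0.52 (median -0.89) in P17 hyperoxia and -0.84 to 0.82 (median -0.38) in P17 normoxia, where 0 of 12 hyperoxia arrays lay above the normoxia median. The change was -1.07 ± 0.23 (log2, SE; adjusted p 0.0227), and it was -1.40 within scan day 1. Other probes of the pair did not pass. Another probe of Tgif1 was at -0.014 (unadjusted p 0.837), and those of Tgif2 were at 0.83 (unadjusted p 0.0953) and -0.13 (unadjusted p 0.0191). In P12 hyperoxia the highest ratio of Tgif2 was that of replicate 1, and without this array the change of Tgif2 still passed. The median change of the TGF-beta list was -0.064, with 0 genes higher and 4 lower at an unadjusted p under 0.05.

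Klf3, a Kruppel-like repressor of erythroid and B cell genes, was higher at P17. Its ratio was 0.91 to 2.29 (median 1.84) in P12 hyperoxia and 1.17 to 2.85 (median 2.16) in P12 normoxia, and 1.07 to 2.30 (median 1.89) in P17 hyperoxia and 0.78 to 1.62 (median 1.24) in P17 normoxia. P17 normoxia was the low group, and 11 of 12 P17 hyperoxia arrays lay above its median. In Klf3 hyperoxia minus normoxia was -0.49 ± 0.18 at P12 and 0.54 ± 0.16 at P17, a change of 1.03 ± 0.24 (log2, SE; adjusted p 0.0362), and at P28 it was again below 0 (-0.36 ± 0.18). A brighter probe of Klf3 was at 0.25 (unadjusted p 0.0645). Klf3 was 1 of 24 Kruppel-like and erythroid factors with a probe past the threshold. The list's median change was -0.033 by the brightest probe of a gene and 0.020 over all its probes. Of its genes 1 was higher and 5 were lower at an unadjusted p under 0.05.

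Erf, an ETS repressor that ERK switches off, changed by -0.67 ± 0.15 (log2, SE; adjusted p 0.0247), from 0.27 ± 0.11 at P12 to -0.40 ± 0.10 at P17. Foxj3, a forkhead factor, changed by -0.70, Zbtb2 by -0.60, Pogz by -0.39, Phf14 by -0.39 and Gabpa, an ETS activator of mitochondrial genes, by -0.33 (log2). Pias2, a SUMO ligase, changed by -0.76. Gps2, a subunit of the NCoR corepressor, and Cdk13, a kinase of elongating RNA polymerase II, were higher at P17 by 0.48 and 0.66 (adjusted p 0.0115 and 0.0133). The ratio of Gps2 was 0.13 to 0.78 (median 0.40) in P17 hyperoxia and -0.029 to 0.29 (median 0.10) in P17 normoxia, with 12 of 12 hyperoxia arrays above the normoxia median, and 0 of 10 at P12. Cdk13 had the same counts, 0 of 10 and 12 of 12, with ratios of 0.35 to 0.86 in P12 hyperoxia, 0.35 to 1.19 in P12 normoxia, 0.46 to 0.95 in P17 hyperoxia and 0.037 to 0.80 in P17 normoxia.

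Several members lie on chromosome 11 by RefSeq's annotation, 11 of the 59 genes (18.6%, against 8.53% of the genes tested), with 6 higher and 5 lower at P17. Trp53, Gps2 and Eif5a, all higher at P17, are among them. Gps2 and Eif5a are neighbours whose annotated ends overlap, and whether a probe lies in the overlap was not examined. On the X chromosome were 5 genes (8.47%, against 3.25% of the genes tested), Tmem28 and Idh3g higher and Klhl15, Sms and Cul4b lower at P17.

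Tiparp, a mono-ADP-ribosyl transferase induced by the aryl hydrocarbon receptor, was lower at P17. In P12 hyperoxia its ratio was -0.042 to 1.36 (median 0.47), above -0.66 to 0.22 (median -0.19) in P12 normoxia, and 10 of 10 hyperoxia arrays exceeded the normoxia median. In P17 hyperoxia it was -0.99 to 0.38 (median -0.49) and in P17 normoxia -0.84 to 0.66 (median -0.16). The normoxia arrays were at about the same level at both ages, so the change of -1.01 ± 0.23 (log2, SE; adjusted p 0.0302) came mostly from the fall in hyperoxia between P12 and P17, -0.94 against 0.066 in normoxia (log2).

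Dusp10, a phosphatase of JNK and p38, was at -0.27 to 0.89 (median 0.29) in P12 hyperoxia and -0.37 to 0.34 (median -0.088) in P12 normoxia, then at -0.27 to 0.44 (median 0.051) and -0.025 to 1.07 (median 0.35) at P17. Hyperoxia was the higher group at P12 and the lower one at P17, and the change was -0.68 ± 0.17 (log2, SE; adjusted p 0.0493). Frs2, an adaptor of FGF receptors, changed by -0.58, and Arhgap35, a GTPase-activating protein, by -0.57. Tsc1, which holds back mTORC1, changed by -0.42 ± 0.10, adjusted p 0.0414, from 0.27 at P12 to -0.16 at P17. Fnip1, a partner of folliculin and AMPK in the same pathway, changed by -0.58 ± 0.14, adjusted p 0.041, from 0.29 to -0.29.

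Cul4b, the X-linked scaffold of a cullin ubiquitin ligase, was at -0.24 to 0.73 (median -0.045) in P12 hyperoxia and -0.84 to -0.040 (median -0.42) in P12 normoxia. At P17 it was at -0.52 to 0.30 (median -0.31) in hyperoxia and -0.42 to 0.37 (median 0.055) in normoxia. Hyperoxia was above the normoxia median on 10 of 10 arrays at P12 and on 1 of 12 at P17, and the change was -0.75 ± 0.14 (log2, SE; adjusted p 0.0115). Fbxw7, which hands MYC and cyclin E to a ligase of the same kind, changed by -0.58 ± 0.14, adjusted p 0.041. Psme4, an activator of the proteasome, and Nrd1, a metalloendopeptidase, were higher at P17, by 0.76 ± 0.18, adjusted p 0.0447, and by 0.61 ± 0.12, adjusted p 0.0133. Cast, the inhibitor of calpains, was higher by 0.36 ± 0.076, adjusted p 0.0158. In the list of proteasome and ubiquitin genes 0 of 37 passed, with 6 higher and 4 lower at an unadjusted p under 0.05, led by Psmd8, 0.40 (adjusted p 0.0999), and Uba1, 0.46 (adjusted p 0.106).

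Pnp, which splits purine nucleosides, was higher at P17, with ratios of 0.92 to 1.98 (median 1.49) in P12 hyperoxia, 1.50 to 2.95 (median 2.01) in P12 normoxia, 1.16 to 2.63 (median 1.79) in P17 hyperoxia and 1.01 to 1.71 (median 1.51) in P17 normoxia. P12 hyperoxia lay low, with 0 of 10 arrays above the normoxia median, and the change was 0.99 ± 0.24 (log2, SE; adjusted p 0.0493). Sms, which makes spermine, changed by -0.34 ± 0.084, adjusted p 0.0493. Slc30a4, a transporter that loads zinc into vesicles, was the only one of 22 genes of zinc transport past the threshold. It was at -1.76 to 0.54 (median -0.94) in P12 hyperoxia, -1.98 to -1.05 (median -1.54) in P12 normoxia, -2.11 to -0.61 (median -1.74) in P17 hyperoxia and -1.69 to -0.25 (median -1.17) in P17 normoxia. Hyperoxia was thus higher at P12 and lower at P17, a change of -1.15 ± 0.26 (log2, SE; adjusted p 0.0281). Over the list of zinc transport and metallothionein genes the median change was 0.029, with 1 gene higher and 3 lower at an unadjusted p under 0.05.

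Idh3g, a subunit of isocitrate dehydrogenase, was higher at P17 by 0.59 ± 0.14, adjusted p 0.0424. So was Higd2a, a factor for assembly of respiratory complexes, by 0.57 ± 0.13, adjusted p 0.0297, and Glrx, which removes glutathione from proteins, by 0.52 ± 0.12, adjusted p 0.0414. Over 53 genes of oxidative phosphorylation with a symbol 0 passed, and 0 higher and 1 lower had an unadjusted p under 0.05. Sdha was at -0.38 (adjusted p 0.213) and Atp5c1 at -0.41 (adjusted p 0.274). The 15 probes past the threshold without a symbol could not enter this or any other list. Over 34 genes of the NRF2 response 0 passed, with 3 higher and 0 lower at an unadjusted p under 0.05. Sesn2, a stress-induced inhibitor of mTORC1, was at 0.67 (adjusted p 0.0654) and Prdx3, a mitochondrial peroxidase, at 0.99 (adjusted p 0.107). With the scanner software's signals Sesn2 passed (1.02, adjusted p 0.0335).

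Kpnb1, the importin that carries cargo into the nucleus, changed by -0.53 ± 0.11, adjusted p 0.0154, and Nup50, a mobile nuclear pore protein, was higher by 0.33 ± 0.076, adjusted p 0.0305. Pcm1 and Cep295, both proteins of the centrosome and its satellites, changed by -0.47 ± 0.096, adjusted p 0.0154, and by -0.37 ± 0.083, adjusted p 0.0297. Nufip2, an RNA-binding partner of FMRP, changed by -0.85 ± 0.21, adjusted p 0.0493, with an effect of 0.28 at P12 and -0.57 at P17. Spire1, an actin nucleator, was higher by 0.77 ± 0.16, adjusted p 0.0154, and Get3, which inserts tail-anchored proteins into membranes, by 0.60 ± 0.14, adjusted p 0.0375.

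The transcript 1700055K11Rik was well above background on 9 of 10, 10 of 11 and 11 of 12 arrays of P12 hyperoxia, P12 normoxia and P17 hyperoxia but on 2 of 12 of P17 normoxia, with ratios of -0.30 to 0.50 (median -0.071) in P12 hyperoxia, -0.15 to 1.11 (median 0.51) in P12 normoxia, -0.34 to 0.61 (median 0.22) in P17 hyperoxia and -0.16 to 0.31 (median -0.054) in P17 normoxia. Its change was 0.72 ± 0.14 (log2, SE; adjusted p 0.0133). The remaining members with a symbol were Tmem28 (0.60), Slc66a2 (0.55), Mia2 (0.45), Aspscr1 (0.45) and Mpp2 (0.32), higher at P17, and Klhl15 (-0.27), Zfp672 (-0.34), Ric1 (-0.40), Btbd7 (-0.43), Tmem63b (-0.46), Ddx52 (-0.50), Zc3h6 (-0.55), Gm14295 (-0.57) and Tex30 (-0.59), lower at P17 (log2 change). Of the 15 probes without a symbol, the 9 higher at P17 ranged from 0.23 to 1.56 and the 6 lower from -0.88 to -0.31. Mpp2 was well above background on 3 of 10, 10 of 11, 8 of 12 and 1 of 12 arrays of P12 hyperoxia, P12 normoxia, P17 hyperoxia and P17 normoxia. The probe without a symbol at 0.23 was so on 2 of 10, 6 of 11, 2 of 12 and 0 of 12 arrays in the same order, and thus entered the test through P12 normoxia alone. Another 2 probes without a symbol, at 0.45 and 0.34, were well above background on 1 of 12 and 2 of 12 P17 normoxia arrays.

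Over the 28 lists of genes the median oxygen effect passed from below 0 at P12 to above 0 at P17 in 2, amino acid starvation and glycolysis, and from above to below 0 in 7. These medians are set beside 0.018 and 0.012 over all genes. All list medians come from the fit without a batch term. With scan day as a block the median change turned its sign in 3 of the 28 lists, translation factors (to 0.020), interferon response (to -0.043) and cell division (to 0.020), and moved by over 1.5 times in another 10. With median centring it turned in 4, zinc transport (to -0.025), hypoxia response (to -0.046), p53 (to -0.11) and interferon response (to -0.029), and moved so far in another 13. With the software's signals it turned in 3, translation factors (to 0.0085), hypoxia response (to -0.13) and p53 (to -0.029), and moved so far in another 18, with erythroid genes at 0.062. Immediate early genes, which cells induce within minutes of activation, had a median change of -0.24 (log2), from 0.34 at P12 to 0.0075 at P17. Of 31 tested 0 passed, with 1 higher and 10 lower at an unadjusted p under 0.05 (9.29% and 9.24% of all genes), and Tnfaip3 was at -1.31 (adjusted p 0.0869) and Zfp36l1 at -0.91 (adjusted p 0.0889). Of 44 chromatin remodelling genes 0 passed, with 1 higher and 9 lower at an unadjusted p under 0.05, and Setd2 was at -0.96 (adjusted p 0.0637) and Arid2 at -0.34 (adjusted p 0.0689). With the scanner software's signals Setd2 (-1.03, adjusted p 0.0426) and Zfp36l1 (-1.07, adjusted p 0.0411) passed. Glycolysis genes had a median change of 0.20, from -0.14 to 0.12. Of 23 tested 0 passed, with 7 higher and 1 lower at an unadjusted p under 0.05, and Eno1 was at 0.63 (adjusted p 0.111) and Gapdh at 0.56 (adjusted p 0.105).

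No gene of the hypoxia list passed. Of 35 hypoxia response genes 0 passed, and 2 were higher and 5 lower at an unadjusted p under 0.05. Their median change was 0.0055, with Vhl, the ligase subunit that marks HIF for breakdown, at -0.51 (adjusted p 0.0971) and Pdk1, a kinase that HIF induces, at -0.59 (adjusted p 0.11). Of 21 angiogenesis genes 0 passed, with 2 higher and 1 lower at an unadjusted p under 0.05, and Pdgfb was at 0.34 (adjusted p 0.169) and Notch1 at -0.16 (adjusted p 0.219). Heat shock proteins (0 of 28, median 0.076), interferon response genes (0 of 33, median 0.052) and cell division genes (0 of 39, median -0.12) had none past the threshold either. At an unadjusted p under 0.05 they held 4 and 0, 1 and 2, and 0 and 1 genes higher and lower. Among their genes were Hsph1, 0.48 (adjusted p 0.128), and Hspa1l, 0.21 (adjusted p 0.166), then Irf1, -0.92 (adjusted p 0.128), then Cdt1, -1.06 (adjusted p 0.089), and Nusap1, 1.07 (adjusted p 0.27).

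Medians of red cell genes were below 0 at both ages, and nearer to 0 at P17. Heme synthesis genes had a median change of 0.45 (log2), from -0.70 at P12 to -0.056 at P17, and of 0.28 with scan day as a block. Of 15 tested 0 passed, with 4 higher and 0 lower at an unadjusted p under 0.05. Cpox, which oxidises coproporphyrinogen, was at 1.72 (adjusted p 0.0654), with -1.53 at P12 and 0.20 at P17, and Ppox at 0.75 (adjusted p 0.244). Of 28 erythroid genes 0 passed, and 5 were higher and 0 lower at an unadjusted p under 0.05. Their median effect was -0.88 at P12 and -0.44 at P17, and the transferrin receptor Tfrc was at 1.31 (adjusted p 0.123) and Klf1 at 0.36 (adjusted p 0.104).

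Cell type markers were set beside these results, since in bulk blood fewer cells of a type and less RNA per cell cannot be told apart. The mean ratio of 14 reticulocyte markers ran from 2.33 to 4.19 in P12 hyperoxia, 2.75 to 4.84 in P12 normoxia, 2.17 to 4.48 in P17 hyperoxia and 3.03 to 4.97 in P17 normoxia. Its oxygen effect was -0.70 at P12 and -0.44 at P17, a change of 0.26 in the direction of the genes higher at P17. The change was 0.20 with median centring, where the effect was -0.13 at P12 and turned to 0.071 at P17, and 0.093 with the software's signals. With Cy3 intensities alone it was 0.41, from -0.11 at P12 to 0.30 at P17. Within scan day 1 the change was 0.32, 0.21 with median centring, 0.40 with the software's signals and 0.072 with Cy3 alone. Platelet markers (0.29, from -0.49 to -0.19) and monocyte markers (0.15, from 0.023 to 0.21) had medians above 0, while T cell markers had -0.33, from 0.36 to -0.0035, on the side of the genes lower at P17. Medians of B cell (-0.026), NK cell (-0.063) and neutrophil markers (0.036) were nearer to 0. In these 7 marker lists 0 genes passed. With the reticulocyte mean as a covariate 75 of 75 probes passed again with the same direction, among 261 calls in all, at a median of 0.945 times the size. This covariate is a mean of the same normalised ratios. The part of reticulocytes and of the other cell types in the results was not tested.

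No member of the marker lists passed the threshold. Values of leading members were Rhag, 0.93 (adjusted p 0.15), for reticulocytes, Nrgn, 0.50 (adjusted p 0.567), for platelets, and Ly6c2, 0.66 (adjusted p 0.169), and Lyz2, 0.47 (adjusted p 0.376), for monocytes. Among T cell markers Cd6 was at -0.83 (adjusted p 0.281), and B cell markers were led by Cd72, -1.12 (adjusted p 0.127), and Fcer2a, 0.55 (adjusted p 0.262). NK cell markers were led by Gzma, -1.27 (adjusted p 0.171), and Eomes, 0.27 (adjusted p 0.289), and neutrophil markers by Lcn2, 0.90 (adjusted p 0.195), and Elane, 0.45 (adjusted p 0.364).

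**Figure D4:**
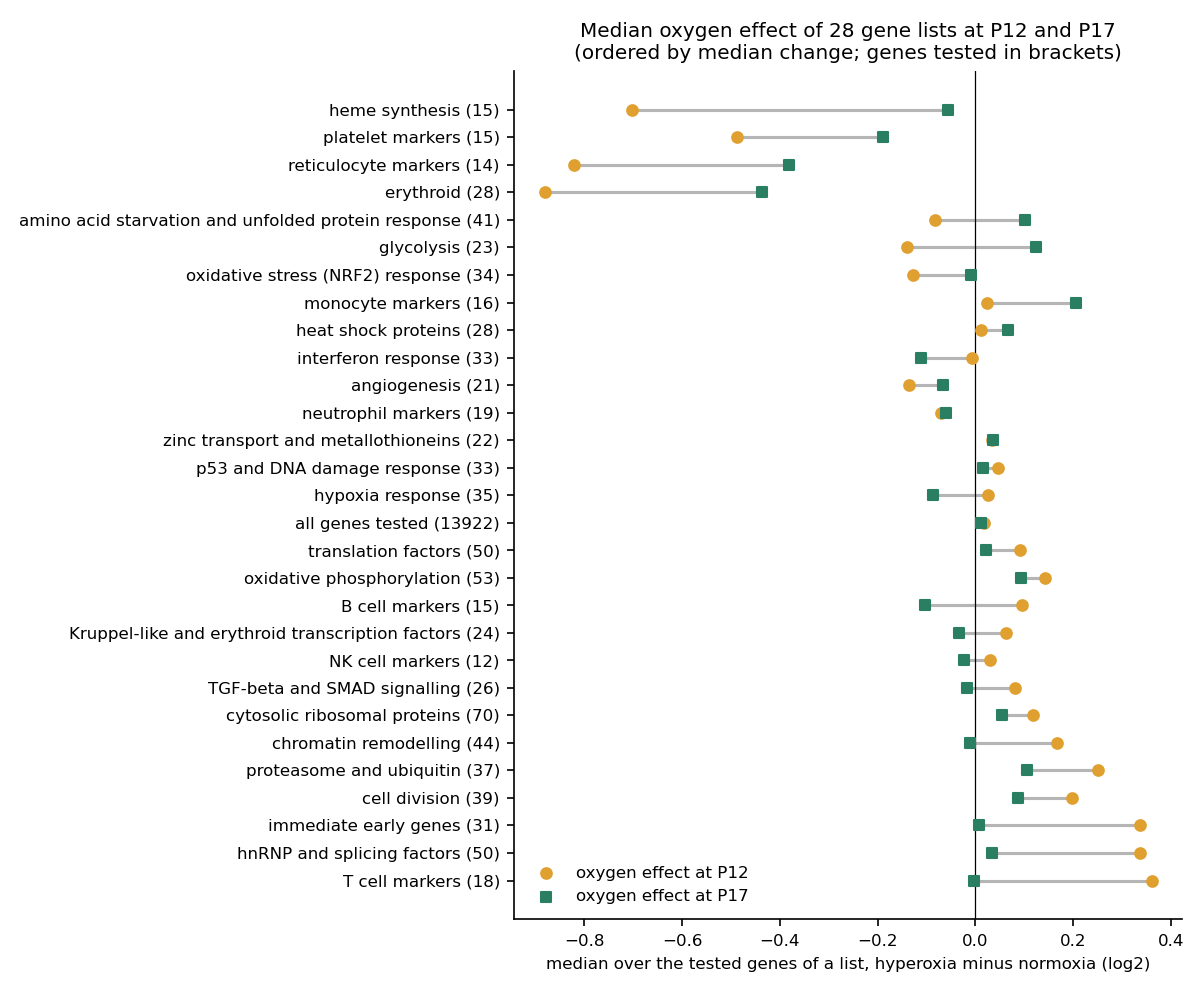
Median oxygen effect (hyperoxia minus normoxia, log2) at P12 (circles) and P17 (squares) over the tested genes of 28 lists and over all 13922 genes, ordered by the median change in the fit without a batch term. The medians were -0.70 and -0.056 for heme synthesis, 0.34 and 0.035 for hnRNP and splicing factors, 0.36 and -0.0035 for T cell markers, and 0.018 and 0.012 for all genes.

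Probes of a gene mostly shared a direction but seldom passed together. Of the 59 genes 28 had more than 1 tested probe, with 37 further probes that did not pass. Of these 27 pointed the same way as the called probe, 8 of them with an unadjusted p under 0.05, and 10 pointed the other way, 0 of them with an unadjusted p under 0.05. The values above are those of the called probe and need not hold for all transcripts of a gene.

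The size of the changes moved with the way the signals were corrected. With the scanner software's own background-subtracted signals 48 of the 75 passed again, 75 of 75 kept their direction, and their size was larger by a median of 1.79 times. It was over 1.5 times as large for 48 of the 75 probes. Among those taken by the naming rule these were Spire1 (2.31), Psme4 (1.38), Trp53 (1.53), 1700055K11Rik (3.10), Get3 (0.94), Gps2 (1.07), XM_011248237 (1.31), Hnrnpl (1.20) and the second probe of Eif4g2 (1.01), all higher at P17. They also included AK011797 (-1.63), Erf (-1.10), Dusp10 (-2.13), Nufip2 (-1.37) and Slc30a4 (-2.11), all lower at P17. Klf3, Spire1, Psme4, Sars, AK011797 and the brighter probe of Eif4g2 did not pass in that fit. With each array centred on its median in place of the loess curve, 2 probes passed and 1 of the 75 was among them, that of Spire1, while 75 of 75 kept their direction and 58 had an unadjusted p under 0.05. Where median centring was joined to slide as a block, the size of 22 of the 75 fell by over 1.5 times. Among those taken by the naming rule it fell to 0.82 for Raly, 0.59 for Klf3, 0.64 for Pnp, 0.56 for Eif5a, 0.48 for 1700055K11Rik, 0.39 for Sars, 0.38 for Cdk13, 0.38 for Nrd1, 0.40 for Get3 and 0.34 for the brighter probe of Eif4g2. With scan day in place of slide the size of 12 fell so far, among them Klf3 (0.65), Sars (0.40), Cdk13 (0.35) and the brighter probe of Eif4g2 (0.38). With Cy3 intensities alone that of 4 did, among them Sars (0.36) and XM_011248237 (0.19).

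Of the 31 named probes past the threshold, 13 passed in each of the 45 fits that left out 1 array. They were ENSMUST00000082396, Trp53, Eif5a, Eif4g2, Hnrnpl, Gps2, Cdk13, Nrd1, Spire1 and 1700055K11Rik among those higher at P17, and Hnrnpa1, Cul4b and Tgif2 among those lower. At the other end, Pnp passed in 12 of 45, Dusp10 and Nufip2 in 15, Foxj3 in 16 and Psme4 in 18. Raly passed in 34, Klf3 in 26, Sars in 25 and Hnrnpdl in 32 of 45.

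**Figure D5:**
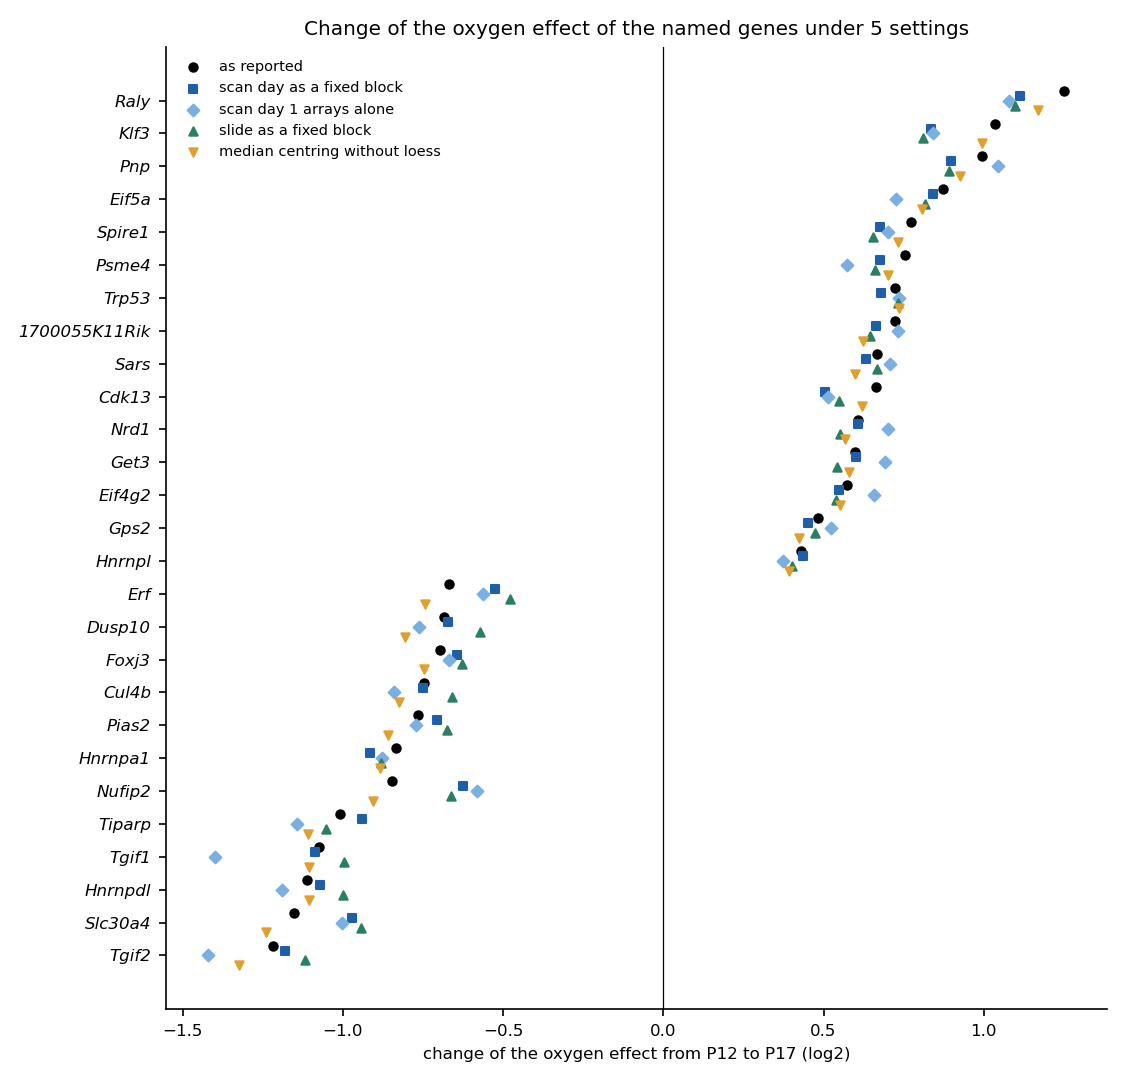
Change of the oxygen effect from P12 to P17 (log2) of the named genes past the threshold, as reported, with scan day or slide as a block, within scan day 1 and with median centring. The points of a gene stay on 1 side of 0 in these 5 settings, with Raly between 1.08 and 1.25 and Tgif2 between -1.42 and -1.12, while over all 24 other settings on ratios Raly lay between 0.82 and 1.53 and Tgif2 between -1.80 and -1.12.

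Of 4 measures of the arrays themselves, the ratio of the spike-in RNA had the smallest p for the same difference of differences (-0.77 on the log2 scale, permutation p 0.0192, adjusted over 4 measures 0.0766). Among scan day 1 arrays its difference was -0.076 (permutation p 0.858). The share of probes well above background differed by 5.68 percentage points between hyperoxia and normoxia at P12 and by 6.64 at P17 (permutation p of the change 0.784, adjusted 0.993). The median ratio before normalisation and Xist had permutation p-values of 0.857 and 0.993. With the share of probes well above background as a covariate, and with Xist as one, 75 of 75 probes passed again with the same direction. The part of the 4 measures in the results was not tested.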

How the data were processed

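Blood RNA of 66 pups was hybridised to 2-colour Agilent mouse arrays. The authors scanned the arrays and deposited Feature Extraction 10.7.3.1 files with Cy3 and Cy5 spot intensities, local backgrounds, background-subtracted and dye-normalised intensities and a log10 ratio. They also deposited a normalised log2 ratio table, made with GeneSpring per their methods, with its centring and direction unstated. Its columns correlated with log2(Cy3/Cy5) at r of 0.988 or more, with medians from -0.25 to 0.090.

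Median intensities were corrected by normexp (offset 50) and normalised by loess within arrays. Control spots and outlier flags were left out, and spots of a probe were averaged. All 66 arrays entered 1 limma 3.58.1 fit (R 4.3.3) of 6 groups, and the contrast was adjusted by Benjamini-Hochberg over 28829 probes at 0.05. Permutation tests of array measures drew 100000 resamples (numpy 2.4.6) and were 2-sided. A simulation with 200 probes shifted by 1 (log2) recovered 85.5% with 14 false calls. The median change was 0.57 for the 35 probes higher and -0.57 for the 40 lower at P17, and recovery at that size was not measured. Symbols were given for 32994 of 56605 probes.

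The members, the 28 lists and the tests were chosen with earlier results of these data known. The rule for named genes took, among probes past the threshold with a symbol, the 12 greatest values in each direction, genes with more than 1 such probe and probes past the threshold with a block, and of each list the members past the threshold or the 2 smallest p. Other members were named after their values were seen. A few genes that the rule takes from the lists are not reported here. A list counts the brightest probe of a gene unless any probe or all probes are said, and probes without a symbol entered no list. Alternatives covered signals, normalisation, filters, blocks, weights, covariates and left-out arrays.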

Additional observations from a re-analysis of the deposited data

Results flagged for a closer look

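The effects of hyperoxia at P12 and at P17 differed for the 75 probes past the threshold of the test of that difference (limma, adjusted p under 0.05). For named genes higher at P17 the difference (log2) was 1.56 for ENSMUST00000082396, 1.25 for Raly, 1.03 for Klf3, 0.99 for Pnp, 0.87 for Eif5a, 0.77 for Spire1, 0.76 for Psme4, 0.72 for Trp53, 0.72 for 1700055K11Rik and 0.67 for Sars. It was 0.66 for Cdk13, 0.61 for Nrd1, 0.60 for Get3, 0.57 and 0.56 for the probes of Eif4g2, 0.48 for Gps2, 0.43 for Hnrnpl and 0.32 for XM_011248237. For those lower at P17 it was -0.31 for AK011797, -0.67 for Erf, -0.68 for Dusp10, -0.70 for Foxj3, -0.75 for Cul4b, -0.76 for Pias2, -0.84 for Hnrnpa1, -0.85 for Nufip2, -1.01 for Tiparp, -1.07 for Tgif1, -1.11 for Hnrnpdl, -1.15 for Slc30a4 and -1.22 for Tgif2.

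Single arrays stood apart in 3 of the 35 values tested in P12 hyperoxia, the only one of the 4 groups small enough for the test of the highest or lowest sample. Chance gives about 1 in 20. Replicate 1 had a ratio of 2.10 for Hnrnpdl, where the next array had 1.37, and of 2.30 for Tgif2, where the next had 1.23. It also had the highest share of probes well above background of its group, 55.4% against 42.4% to 53.9% in the others. Replicate 7 had 0.50 for 1700055K11Rik, where the next array had 0.11. What set these arrays apart was not tested.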

How the results depend on the processing

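The 75 probes kept their direction under every setting on ratios in which they were tested, and in every fit without 1 array, while the number past the threshold moved. With median centring 2 passed, with Cy3 alone 306 (74 of the 75 kept their direction), without the probe filter 40 and with the P12 and P17 arrays alone 29. With slide as a fixed block 5 passed, with slide as a random block 43, with scan day 9, and within scan day 1 alone 0 (2793 at an unadjusted p under 0.05). The software's signals gave 3 with slide and 7 with scan day as a block, and median centring gave 0 with slide and 0 with scan day (595 and 961 at an unadjusted p under 0.05). Array weights gave 5853, the detection share as a covariate 2526 and the reticulocyte mean 261. Cy5 alone, the reference by intensity, gave 0 (2820 at an unadjusted p under 0.05, and 37 of the 75 in the same direction). Counts under the software's signals (103, as with the authors' table), scaled spread (71), other probe filters (85 and 77), robust variances (72), Xist (98), Eif2s3y (77) and 1 probe a gene (55) lay within 1.5 times of 75. Cy5 alone, Eif2s3y and scan day with the software's signals or with median centring were chosen after the data were seen.

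Leaving out 1 array gave between 28 calls (without P12 hyperoxia replicate 1) and 646 (without P17 hyperoxia replicate 3), with 16 of 45 fits under 50 and 21 between 50 and 1.5 times 75. Titles of the P12 groups share mouse numbers, which name no shared litter. Of 10 pairs with the same number 8 deviated together (r over 0.1), and with the number as a replicate block 243 probes passed.

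Of 1683 values of named genes under these settings, 1318 stayed on the same side of the threshold, 281 lost and 79 gained the call, and 5 turned round, none of a gene past the threshold. Fcer2a turned to -0.21 with the software's signals and with the authors' table, and to -0.046 with scan day added. With median centring and slide Elane turned to -0.068 and Eomes to -0.024. The cause was not tested. Dim probes, with ratios pulled towards 0 by the offset, limit the sizes.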
